A study of Homo sapiens with 18 samples.

Results

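The tricarboxylic acid (TCA) cycle oxidises acetyl groups to carbon dioxide in the mitochondrial matrix and passes their electrons to the respiratory chain as NADH and succinate. Its enzymes are encoded in the nucleus, translated on cytosolic ribosomes and imported, so their mRNAs are found on the polysomes that were sequenced here. Several steps have isoenzymes that differ in compartment or cofactor, and cells also use cycle intermediates to make amino acids, lipids and NADPH.

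The mRNAs of 9 TCA cycle enzymes were followed: CS, IDH1, IDH2, IDH3A, IDH3B, OGDH, SUCLA2, FH and MDH2. They were chosen by name, and all 9 had a row in both deposited tables, of 15747 genes measured in the fractions and 44682 in whole cells. The cells were DU145, an established line from a metastatic prostate carcinoma. They received 40 µM GC7, an inhibitor of deoxyhypusine synthase and so of the hypusine modification of the translation factor eIF5A, or vehicle alone for 24 h. Polysomal, cytoplasmic and whole-cell RNA gave 6 groups of 3 libraries (GC7 and vehicle for each), 18 in all. Emetine, which halts elongating ribosomes, was added to cells of either treatment before lysis, and nuclei and mitochondria were pelleted away from the cytoplasmic extract, per the labels' protocols.

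The deposited files are comparison tables. They hold no values of single libraries, so depth is unknown and no SD is given. Separate cultures are not stated for the replicates, and the p-values measure no more than how these libraries vary, possibly for technical reasons. Neither table names its numerator: fold changes are read here as GC7 over vehicle, and the sign of the whole-cell table was reversed because its values correlated negatively across genes with those of the polysomes and cytoplasm (Spearman rho of -0.37 and -0.281). If GC7 were the denominator, all directions given here would be inverted. The keratin genes KRT8, KRT18 and KRT19 and the epithelial gene EPCAM were measured in the fractions, while the prostate gene KLK3, the leukocyte gene PTPRC and the endothelial gene PECAM1 had no row in the fraction table. In whole cells KLK3 and PTPRC held the value shared by genes without reads. PECAM1 did not (-0.91 with the sign reversed), so it had some reads there. Of these markers EPCAM alone was called, on polysomes, where the authors' deposited table had 0.59 (SE 0.19, adjusted p = 0.00408). All cells were of 1 line, and in such bulk RNA a change in some cells and a smaller one in every cell cannot be told apart.

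On heavy polysomes 2 of the 9 mRNAs rose with GC7, IDH1 and FH, and none fell. IDH1, the cytosolic and peroxisomal isocitrate dehydrogenase that makes NADPH, had a log2 fold change in the authors' deposited table of 0.86 (SE 0.20, adjusted p = 7.18e-05). The authors' deposited table put FH, fumarase, which hydrates fumarate to malate, at 0.49 (SE 0.20, adjusted p = 0.0218). For the other 7 members the deposited adjusted p lay between 0.119 and 0.883. Over all 15747 genes, 5.61% were called higher and 5.48% lower at an adjusted p under 0.05.

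Fold changes of polysomes and cytoplasm were pulled towards 0 before deposit. Unshrunken values, computed from the deposited fold change and SE, put IDH1 1.92-fold higher on polysomes with GC7 (95% interval 1.48 to 2.49). The unshrunken value of FH was 1.51-fold (95% interval 1.17 to 1.96). These intervals are not adjusted for the number of genes tested.

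The isocitrate dehydrogenases did not move alike. IDH2, the mitochondrial NADP-dependent enzyme and the closest relative of IDH1, had in the authors' deposited table a polysomal value of -0.12 (SE 0.12, adjusted p = 0.526). On the unshrunken log2 scale IDH1 stood at 0.94 and IDH2 at -0.16, a difference of 1.10 (95% interval 0.64 to 1.56, errors taken as independent). In cytoplasm the same difference was 0.99 (95% interval 0.29 to 1.69), with IDH1 at 0.76 and IDH2 at -0.23. IDH3A and IDH3B are the catalytic and a regulatory subunit of the NAD-dependent enzyme of the cycle. On polysomes the authors' deposited table put both at -0.04 (SE 0.14), with an adjusted p of 0.883 for IDH3A and 0.875 for IDH3B. The 95% interval of IDH3A reached from 0.737-fold to 1.23-fold and that of IDH3B from 0.744-fold to 1.21-fold, so changes beyond those sizes lie outside the intervals while smaller ones were not detectable. The unshrunken difference between the subunits was 0.01 (95% interval -0.51 to 0.52).

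The coding sequences of IDH1 and IDH2 are shown because these related mRNAs differed in response and because they differ at their 5′ ends. In the MANE Select transcripts of GENCODE v44, 411 codons align, with 64.9% of bases identical and 69.1% of codons giving the same amino acid. IDH2 has 39 codons before the first aligned one, in capitals below, in the part of the human protein that carries the mitochondrial targeting presequence. IDH1 (chr2:208236229-208255071, GRCh38, minus strand) aligns from its start codon. IDH2 lies at chr15:90083045-90102468 (GRCh38, minus strand). The sequences run from the first base of the coding sequence to 60 bases past the first aligned codon's start.
IDH1: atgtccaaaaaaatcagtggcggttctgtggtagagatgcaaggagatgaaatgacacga
IDH2: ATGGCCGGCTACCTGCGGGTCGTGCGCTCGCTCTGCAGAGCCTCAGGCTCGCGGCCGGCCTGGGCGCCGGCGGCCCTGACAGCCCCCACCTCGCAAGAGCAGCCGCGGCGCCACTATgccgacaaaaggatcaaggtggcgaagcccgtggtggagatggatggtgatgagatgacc

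The members that open and close the cycle, and OGDH, lay above 0 on polysomes without passing adjustment. CS, citrate synthase, which condenses acetyl-CoA with oxaloacetate, had in the authors' deposited table a value of 0.27 (SE 0.14, adjusted p = 0.119). MDH2, the mitochondrial malate dehydrogenase that regenerates oxaloacetate, had by the authors' deposited table a value of 0.26 (SE 0.16, adjusted p = 0.161). The authors' deposited table gave OGDH, the decarboxylating subunit of the 2-oxoglutarate dehydrogenase complex, 0.29 (SE 0.20, adjusted p = 0.173). Each of these 3 had an unadjusted p under 0.05, which with IDH1 and FH makes 5 of 9 members higher at that looser threshold, beside 11.2% of all genes. Their unshrunken folds were 1.26 for CS (95% interval 1.04 to 1.53), 1.27 for MDH2 (1.02 to 1.59) and 1.34 for OGDH (1.02 to 1.76).

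SUCLA2, the subunit that gives succinyl-CoA ligase its ADP specificity, stood in the authors' deposited table at 0.10 (SE 0.12, adjusted p = 0.609) on polysomes. Its GDP-specific counterpart SUCLG2 rose, by the authors' deposited table at 0.52 (SE 0.17, adjusted p = 0.00525). The unshrunken difference of SUCLA2 minus SUCLG2 was -0.45 on polysomes (95% interval -0.88 to -0.03). In cytoplasm it was -0.46, with an interval that includes 0 (-1.17 to 0.25). MDH2 exceeded the cytosolic MDH1 by 0.24 on polysomes, with an interval from -0.31 to 0.80. Such differences were computed for 4 pairs of related subunits in each fraction, 8 in all; the pairs were chosen with the members' values known, and the intervals are not adjusted for their number.

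**Figure D1:**
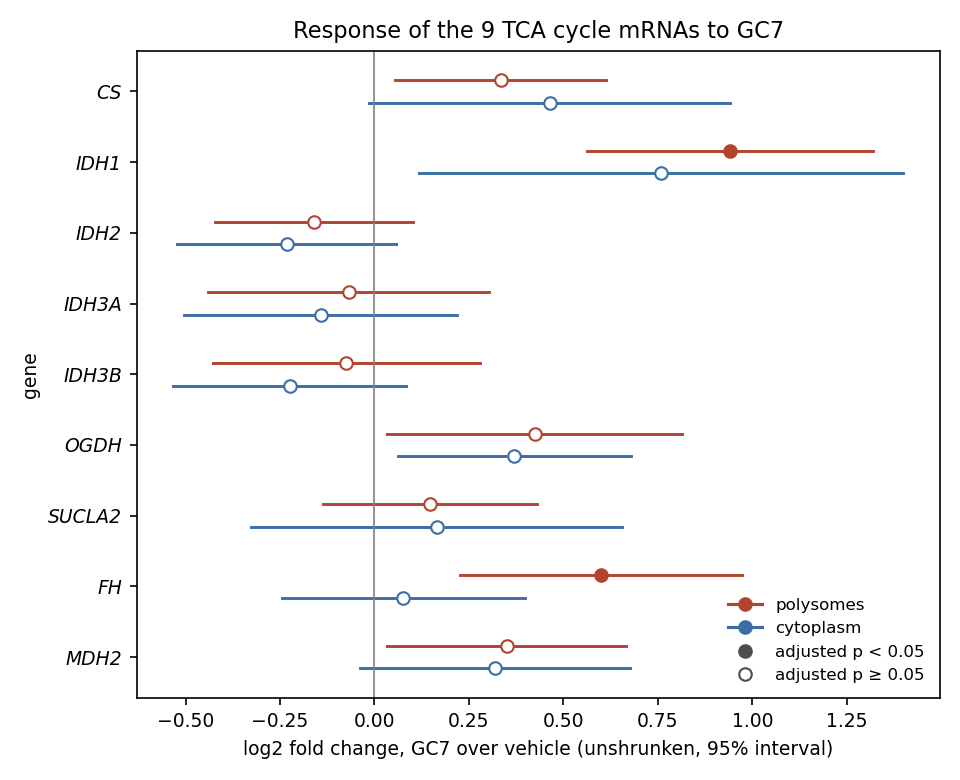
Unshrunken log2 fold change of GC7 over vehicle (x axis) for each of the 9 genes (y axis) on polysomes (red, upper) and in cytoplasm (blue, lower), with bars for the unadjusted 95% interval. Filled circles have a deposited adjusted p under 0.05: IDH1 at 0.94 and FH at 0.60 on polysomes are the only filled ones, while IDH2, IDH3A and IDH3B lie below 0 in both fractions.

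In cytoplasmic RNA none of the 9 mRNAs passed at an adjusted p of 0.05, by which the authors' deposited table had 2.29% of all genes higher and 1.95% lower. The members' deposited adjusted p-values ran between 0.198 and 0.872. At an unadjusted p under 0.05, IDH1 and OGDH were higher, 2 of 9 beside 7.31% of all genes, and no member was lower. The authors' deposited table gave IDH1 0.40 (SE 0.39, adjusted p = 0.206) and OGDH 0.28 (SE 0.16, adjusted p = 0.198). The cytoplasmic interval of IDH1 was wide: its unshrunken fold was 1.69, and the unshrunken SE on the log2 scale was 0.33, against 0.19 on polysomes. For FH the authors' deposited table held 0.05 (SE 0.13, adjusted p = 0.872). CS, MDH2 and SUCLA2 were also above 0, at 0.26 (SE 0.23), 0.21 (SE 0.17) and 0.07 (SE 0.16) in the authors' deposited table. IDH2, IDH3B and IDH3A were below 0, at -0.17 (SE 0.13), -0.15 (SE 0.14) and -0.08 (SE 0.14) in the authors' deposited table. The same 6 members were thus above 0, and the same 3 below, in polysomes and in cytoplasm, where 48.5% and 48.7% of all genes were above 0. The share of all genes with the same sign in both fractions was not computed, so the agreement has no background beside it. On polysomes the deposited values of IDH2, IDH3A, IDH3B and SUCLA2 were smaller than their SE. In cytoplasm those of FH, SUCLA2 and IDH3A were, so all these signs are uncertain. The medians of the 9 members as deposited were 0.26 on polysomes and 0.07 in cytoplasm, beside -0.005 and -0.004 over all genes. Unshrunken, the members' medians were 0.33 and 0.16, beside -0.01 in each fraction over all genes. Their unshrunken polysomal minus cytoplasmic differences had a median of 0.07, beside 0.01 over all genes.

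Whether an mRNA changed more on polysomes than in cytoplasm was tested as the difference of the unshrunken log2 fold changes. No member passed after Benjamini-Hochberg adjustment (normal test over 15741 genes), and neither did any gene, 0% of those tested. At an unadjusted p under 0.05 the difference held for 1 member, FH, beside 2.14% of all genes. The test takes the errors of the fractions as independent, and their correlation was not known. The 2.14% is less than an unadjusted threshold of 0.05 gives where nothing differs, so the test was conservative as run. The absence of calls therefore does not show that the fractions responded alike. FH stood at 0.60 on polysomes and 0.08 in cytoplasm, a difference of 0.52 (unadjusted 95% interval 0.03 to 1.01). The adjusted p of that difference was 1.00, and 0.288 with errors correlated at 0.5. IDH1 differed by 0.18 between fractions (95% interval -0.56 to 0.93), so its call on polysomes alone does not show a response particular to them. The remaining 7 differences lay between -0.13 for CS and 0.15 for IDH3B.

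In whole cells the 9 mRNAs showed no difference that passed a test. Their unadjusted p-values, which the authors' deposited table gives without a standard error, ran from 0.508 to 0.967. Of genes also measured in the fractions, 3.11% had an unadjusted p under 0.05, and 0% of genes passed after Benjamini-Hochberg adjustment over all 44682, with a smallest adjusted p of 0.642. With the sign reversed, the authors' deposited table gave IDH1 0.32 (unadjusted p = 0.772) and OGDH 0.30 (unadjusted p = 0.508). Of the 9, the authors' deposited table had FH lowest, at -0.64 (unadjusted p = 0.527), and SUCLA2 next, at -0.38 (unadjusted p = 0.759). IDH3A at 0.11, MDH2 at 0.10, CS at 0.04, IDH3B at 0.03 and IDH2 at -0.08 in the authors' deposited table were closer to 0. FH was therefore positive on polysomes, near 0 in cytoplasm and negative in whole cells, of which the polysomal value alone passed its test. Sizes are not comparable between the whole-cell and fraction tables, since fold changes of the fractions are shrunken.

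**Figure D2:**
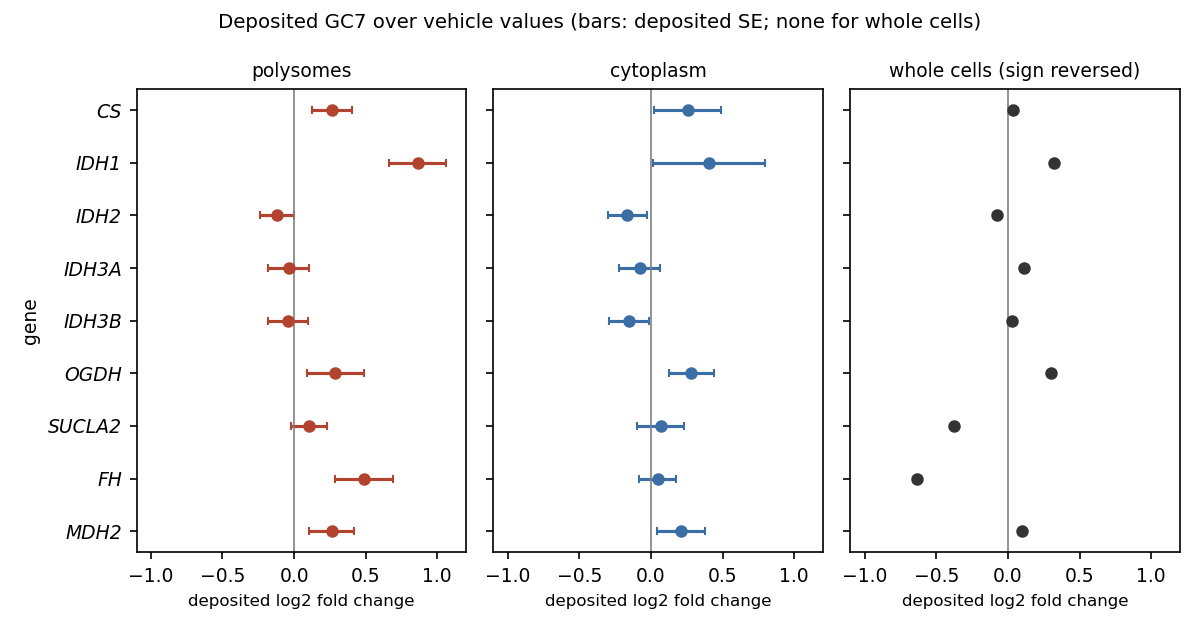
Deposited log2 fold change of GC7 over vehicle (x axis) for the 9 genes (y axis) in polysomes, cytoplasm and whole cells, with the sign of the whole-cell values reversed and bars for the deposited SE where there is one. IDH1 is positive in every panel, at 0.86, 0.40 and 0.32, while FH lies at 0.49, 0.05 and -0.64, the whole-cell value with an unadjusted p of 0.527.

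The levels of the members, taken as the deposited mean normalized count of GC7 and vehicle libraries together per kb of the MANE Select transcript, spanned more than an order of magnitude. MDH2 was the most abundant on polysomes, at 5171 per kb, and IDH3B (2559), CS (2073), IDH1 (1007), IDH2 (968) and FH (867) followed. IDH3A (406), OGDH (321) and SUCLA2 (307) were lowest. In cytoplasm the order was MDH2 (2713), IDH3B (1524), FH (1160), CS (987), IDH1 (724), IDH2 (612), IDH3A (299), OGDH (275) and SUCLA2 (155). Without values of single libraries the spread behind neighbouring levels is unknown, so their order is a description. Only FH was lower on polysomes than in cytoplasm by these counts. Each was scaled within its own fraction, and the median count over all genes was 572 on polysomes and 401 in cytoplasm. The counts therefore do not compare a gene between fractions. For FH the ratio of polysomal to cytoplasmic share lay 0.92 log2 units below the median of all genes, at percentile 5.58. OGDH (-0.28), IDH3A (-0.06) and IDH1 (-0.03) were also below that median, and the other members above it. CS, at 0.57 above the median, and SUCLA2, at 0.49, had the highest ratios among the members. The exons of IDH3A share 2608 bases with ACSBG1 on the opposite strand, which has no row under that name in the fraction table. The exons of CS share 220 bases with ENSG00000144785 on the same strand and 28 with CNPY2-AS1 on the opposite one, also without rows under those names. Whether counting used strand is not given in the sources used here, so the values of IDH3A and CS are uncertain to that extent, and strand would not separate the same-strand overlap.

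**Figure D3:**
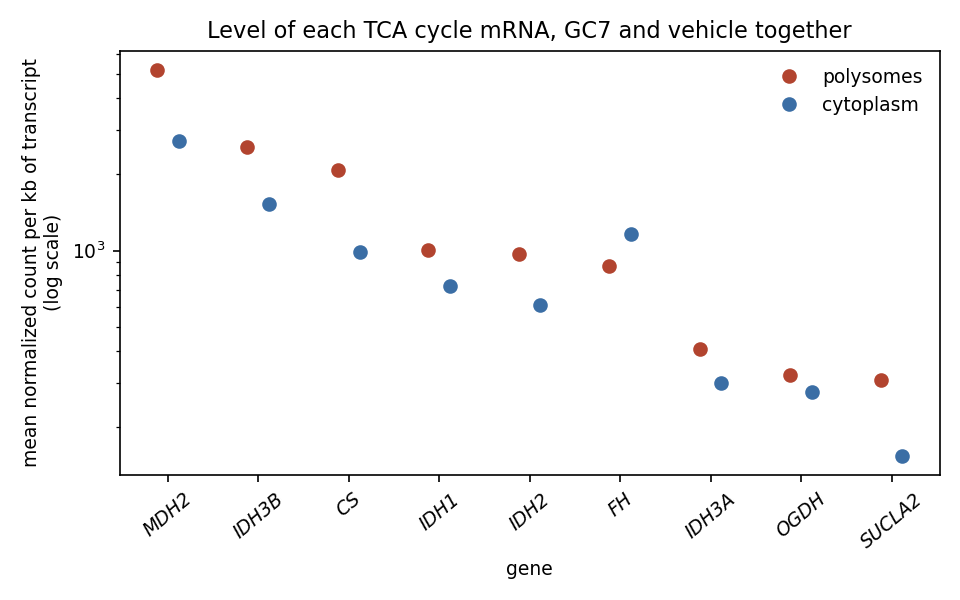
Mean normalized count per kb of transcript (y axis, log scale) for each member (x axis, ordered by the polysomal level) on polysomes (red, left) and in cytoplasm (blue, right). FH is the 1 member whose polysomal point (867) lies under its cytoplasmic point (1160). The fractions were scaled separately, so the points of a gene do not compare its level between them.

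eIF5A is known to relieve ribosomes that pause at runs of proline, so the coding sequences were searched in frame, on the coding strand, for consecutive proline codons (CCN), a run of 3 also counting as a run of 2. None of the 9 coding sequences held 3 in a row (CCNCCNCCN), a motif found in 26.3% of 12776 measured genes with a MANE Select transcript and in 27.1% of the 6942 whose coding length lay within the members' range of 1017 to 3072 bases. A run of 2 (CCNCCN) occurred once each in FH, OGDH and SUCLA2, that is in 3 of 9 members against 73.3% of all those genes. Proline made up between 2.89% of codons in IDH1 and 5.90% in MDH2, beside a median of 5.52% over genes. A relation between the share of proline and the response was not tested. IDH1, at an unshrunken polysomal log2 fold change of 0.94, had the lowest share and no run of 2. FH (0.60), OGDH (0.42), MDH2 (0.35) and CS (0.33) had 5.48%, 5.86%, 5.90% and 4.71%. SUCLA2 (0.15), IDH3A (-0.07), IDH3B (-0.07) and IDH2 (-0.16) had 3.02%, 4.63%, 3.37% and 4.19%. Of the 3354 genes with a run of 3, 5.10% were called higher and 4.62% lower on polysomes, beside 5.77% and 6.28% of the 9422 without. A match here is a description of the sequence and not a measured pause.

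The stretches that hold the runs of OGDH and SUCLA2 are given as examples, with the proline codons in capitals and 5 codons on either side. They cover codons 83 to 94 of OGDH (transcript chr7:44606627-44709066, plus strand) and 224 to 235 of SUCLA2 (transcript chr13:47942656-48001273, minus strand), both in GRCh38 and both exonic coding sequence.
OGDH: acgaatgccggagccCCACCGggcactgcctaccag
SUCLA2: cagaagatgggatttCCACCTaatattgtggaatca

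Of 12 further genes of the cycle, cytosolic isoenzymes included, 3 rose on polysomes and none fell. They were ACO1, the cytosolic aconitase, DLD, the dihydrolipoyl dehydrogenase shared by the 2-oxoacid dehydrogenase complexes, and SUCLG2. In the authors' deposited table ACO1 had 0.46 (SE 0.20, adjusted p = 0.0295) and DLD 0.65 (SE 0.20, adjusted p = 0.00298). None of the 12 passed in cytoplasm, where ACO1 stood at 0.08 (SE 0.14), DLD at 0.10 (SE 0.22) and SUCLG2 at 0.40 (SE 0.29) in the authors' deposited table. Before shrinkage the cytoplasmic value of DLD was 0.83 (SE 0.57), against 0.74 on polysomes. The unshrunken polysomal minus cytoplasmic differences were 0.44 for ACO1 (95% interval -0.08 to 0.95), -0.09 for DLD (-1.26 to 1.09) and -0.02 for SUCLG2 (-0.62 to 0.58). Calls on polysomes alone thus do not show a response particular to them. Together with the members, 5 of 21 listed genes were called higher on polysomes and none lower, beside 5.61% and 5.48% of all genes. Of these 5, IDH1 and ACO1 encode isoenzymes outside the mitochondrial matrix, so the calls for the matrix cycle are DLD, SUCLG2 and FH. Subunits of succinate dehydrogenase, which is also complex II of the respiratory chain, were not called, at 0.31 for SDHA, -0.05 for SDHB, -0.24 for SDHC and -0.16 for SDHD in the authors' deposited table. At an unadjusted p under 0.05, 5 of the 12 were higher on polysomes and 1, SDHC, was lower, beside 1763 and 1911 of 15747 genes. The polysomal minus cytoplasmic difference of SDHC was -0.61 (unadjusted 95% interval -1.19 to -0.04), opposite in sign to that of FH, and did not pass adjustment. IDH3G, the remaining subunit of the NAD-dependent isocitrate dehydrogenase, was in the authors' deposited table at 0.02 (SE 0.14) on polysomes and -0.34 (SE 0.38, unadjusted p = 0.0287) in cytoplasm. It was the 1 of 21 listed cycle genes lower in cytoplasm at an unadjusted p under 0.05, beside 1281 of 15747 genes, so the count does not exceed the background. Its unshrunken fold was 0.60 (95% interval 0.379 to 0.95), and it did not pass adjustment.

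**Figure D4:**
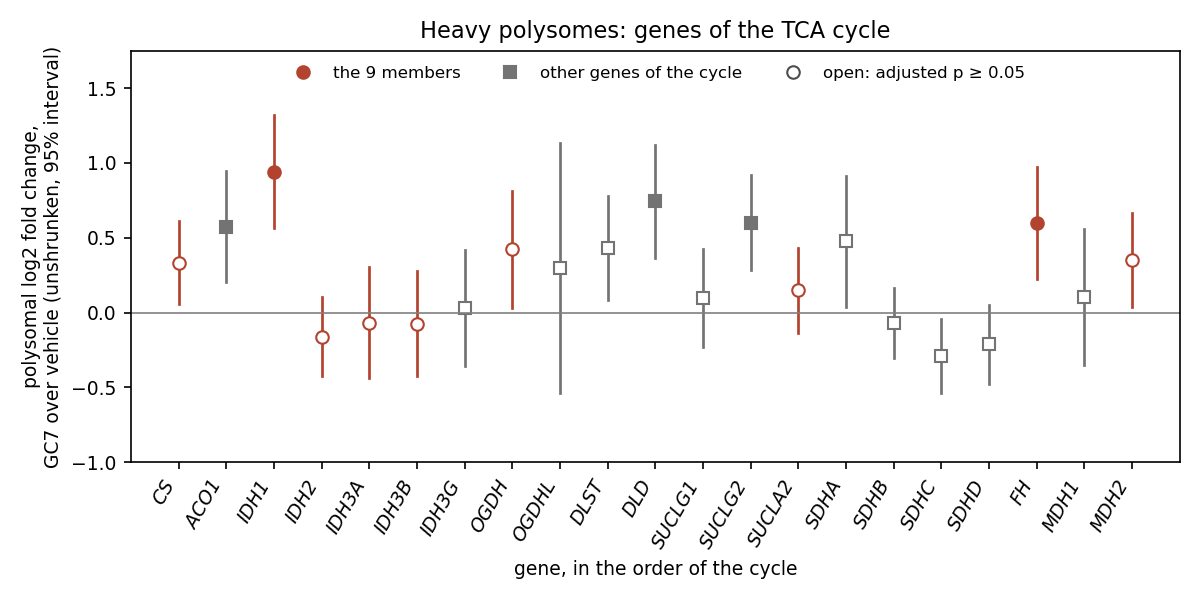
Unshrunken polysomal log2 fold change of GC7 over vehicle (y axis) for the 21 genes of the cycle in reaction order (x axis), with bars for the unadjusted 95% interval, circles for the members and squares for the others. Filled symbols have a deposited adjusted p under 0.05: ACO1, IDH1, DLD, SUCLG2 and FH, all above 0. ACO1, IDH1 and MDH1 encode cytosolic isoenzymes of cycle steps.

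Genes that feed the cycle with pyruvate gave 1 call higher and 2 lower among 13 on polysomes, beside 5.61% higher and 5.48% lower over all genes. In cytoplasm 1 was called lower and none higher, beside 1.95% and 2.29% of all genes. PDK2, a kinase that inactivates pyruvate dehydrogenase, fell in both, with -0.63 (SE 0.15, adjusted p = 0.000117) on polysomes and, also by the authors' deposited table, -0.56 (SE 0.19, adjusted p = 0.0109) in cytoplasm. PDP1, a phosphatase that reactivates the complex, rose on polysomes, by the authors' deposited table at 0.53 (SE 0.24, adjusted p = 0.0294), and MPC2, a subunit of the mitochondrial pyruvate carrier, fell, at -0.42 (SE 0.14, adjusted p = 0.00754). In whole cells the authors' deposited table, sign reversed, had PDK2 on the other side of 0, at 0.54 (unadjusted p = 0.438). PDHA1, PDHB, DLAT and PDHX, subunits of the pyruvate dehydrogenase complex, were not called in either fraction. DLD, the subunit it shares with other complexes, was called higher on polysomes, as given above, and not in cytoplasm. Its unshrunken values were 0.74 and 0.83, so that contrast does not show a response particular to polysomes.

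Genes through which other carbon enters or leaves the cycle had 4 of 11 measured members called higher on polysomes and 3 in cytoplasm, with none lower, beside 5.61% and 2.29% of all genes higher. PCK2, mitochondrial phosphoenolpyruvate carboxykinase, stood at 1.53 (SE 0.16) on polysomes and 1.68 (SE 0.16) in cytoplasm in the authors' deposited table. ME2, the mitochondrial NAD-dependent malic enzyme, stood at 0.93 (SE 0.16) on polysomes and 1.11 (SE 0.30) in cytoplasm by the authors' deposited table. For GOT1, the cytosolic aspartate aminotransferase, the authors' deposited table had 0.85 (SE 0.20) on polysomes and 0.80 (SE 0.18) in cytoplasm. GLUD1, glutamate dehydrogenase, passed on polysomes, where the authors' deposited table had 0.39 (SE 0.16, adjusted p = 0.0349), and not in cytoplasm, with 0.21 (SE 0.14, adjusted p = 0.32). In whole cells, with the sign of the authors' deposited table reversed, PCK2 (2.37, p = 0.00122), GOT1 (1.19, p = 0.0276) and CPS1 (2.04, p = 0.0214) were below 0.05 before adjustment and not after it. CPS1, carbamoyl phosphate synthetase of the urea cycle, had no row in the fraction table. LIAS, which makes the lipoyl group of OGDH's complex and of pyruvate dehydrogenase, rose in both fractions, by the authors' deposited table at 0.51 (SE 0.14, adjusted p = 0.00095) on polysomes and 0.64 (SE 0.25, adjusted p = 0.0269) in cytoplasm. LIPT2, an octanoyltransferase that supplies its precursor, fell in cytoplasm, where the authors' deposited table had -0.69 (SE 0.29, adjusted p = 0.032). Over the 39 measured genes of these lists, 9 were called higher and 2 lower on polysomes, and 4 higher and 2 lower in cytoplasm. The shares over all genes were 5.61% and 5.48% on polysomes and 2.29% and 1.95% in cytoplasm, so the 2 lower on polysomes are near the background.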

How the data were processed

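RNA of DU145 cells was sequenced, and the authors deposited 2 comparison tables. The tools STAR (2.7.8a) and Salmon (1.4.0) and the build GRCh38 are named, with no role, per the submitters' processing notes, and the fit is not given in the sources used here. Per the file headers, the deposited table for whole cells holds log fold changes with p-values that are not adjusted. Its base was read as log2, since the step of 1 read was 0.528 and log2(3)/3 is 0.528. The deposited fraction table gives a mean normalized count (a score averaged over the GC7 and vehicle libraries of a fraction), a log2 fold change with SE, a p-value, an adjusted p-value and a category, whose 207 UP entries all match a positive call; UP was read as higher with GC7.

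Deposited fraction fold changes are shrunken. A Cauchy prior (natural log scale 0.203 for polysomes, 0.197 for cytoplasm) was fitted to the deposited p-values. Recovered z lay within 0.1 of the deposited z for 99.8% and 99.7% of genes, and the difference test left out 4 genes (polysomes) and 2 (cytoplasm) whose z missed by more than 0.5. That test was run on all genes and adjusted by Benjamini-Hochberg. Methods were tested on simulated data. Adjusted p-values printed for polysomes or cytoplasm are those the authors deposited. Python 3.11.15, scipy 1.17.1 and Biopython 1.88 were used. Genes named were the 9 members and of 40 listed pathway genes each with an adjusted p under 0.05 in a fraction or an unadjusted one in whole cells; other genes and the OGDH and SUCLA2 stretches were added after values were seen. Members and lists were chosen with earlier results of these data known. Some items of the lists and sequences are not reported here, and counts are given without them.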

Additional observations from a re-analysis of the deposited data

How the results depend on the processing

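Of the 9 members, 2 were called on polysomes at an adjusted p under 0.05. The count was 1 (IDH1) at an adjusted p under 0.01, and 0 when a log2 fold change over 1 was also required, as in the authors' category. The share of all genes passing was not computed for these stricter settings, so neither count has a background beside it. The count of called members stayed at 2 with adjustment over genes with a mean normalized count of at least 100. It also stayed at 2 with unshrunken values centred on the median of all genes. Uncentred unshrunken values also gave 2. Their prior was fitted to the deposited p-values, so that count could hardly differ and is no separate check. In cytoplasm, in whole cells and for the polysomal minus cytoplasmic difference the count was 0 under every alternative run. For cytoplasm the stricter thresholds could add no call, and the unshrunken values carry the limit just given. With deposited shrunken values in place of unshrunken ones, 2 uncalled differences changed sign, CS to 0.00901 (main value -0.13) and SUCLA2 to 0.0364 (main value -0.02). Leaving out a library could not be run on comparison tables. No paired analysis was possible because the tables hold no values of single libraries. Depth per library is unknown, and the intervals given are the only measure of what could be detected.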

Other observations

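IDH1 and IDH2 make NADPH, and other enzymes of NADPH or folate metabolism were looked up after the values of the members were known. Not all of these, MTHFD2 among them, make chiefly NADPH, and cofactor use was not measured. Of 7 listed, 6 were measured in the fractions, and 2 of these were called higher on polysomes and 2 in cytoplasm, beside 5.61% and 2.29% of all genes. On polysomes ALDH1L2, a mitochondrial folate enzyme, was called higher in the authors' deposited table at 1.54 (SE 0.25, adjusted p = 1.18e-08) and NNT, the transhydrogenase of the inner membrane, at 0.58 (SE 0.19, adjusted p = 0.00539). In cytoplasm the authors' deposited table called ALDH1L2 at 2.23 (SE 0.45, adjusted p = 6.28e-06) and MTHFD2, another mitochondrial folate enzyme, at 0.43 (SE 0.13, adjusted p = 0.00752). PGD of the pentose phosphate pathway, MTHFD1 and MTHFD2L were not called in either fraction. The NADP-dependent malic enzymes ME1 and ME3, counted above among genes of carbon entry and exit, were not called either: the authors' deposited table had 0.04 (adjusted p = 0.883) and 0.07 (adjusted p = 0.768) on polysomes and 0.11 (adjusted p = 0.647) and 0.01 (adjusted p = 0.971) in cytoplasm.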
